A study of Bos taurus with 6 samples.

Results

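The genes described here are the developmental transcription factor families PAX, sine oculis (the family of SIX2 and SIX3), LHX, NKX, DLX, MSX, MEIS, PITX, IRX, OTX and GSX, the large group of homeobox families that lies outside the HOX clusters. They were chosen by name: a window on chromosomes 1 to 29 is a member where the gene symbol printed beside it begins with 1 of these family names followed by a digit, or is EN1 or EN2. The rule used no measured value. It found 487 windows of 902984 in all, which carry 57 genes of the 24024 labelled on these chromosomes, and the 57 genes fall into 11 families. EN1 and EN2 label 0 windows, so the engrailed genes are not described.

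Homeobox genes encode transcription factors that bind DNA through a homeodomain and set the identity of cells and body regions in the embryo. PAX proteins carry a paired domain, alone or together with all or part of a homeodomain, the sine oculis proteins work with EYA cofactors, LHX proteins carry LIM domains, and MEIS proteins are partners of HOX and PBX proteins on DNA. Most of these genes lie in CpG islands that Polycomb proteins hold silent in the tissues that do not use them, and such islands are known as places where cultured and ageing cells gain DNA methylation.

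Methylated DNA was measured by MIRA-Seq in dermal fibroblast cultures from 3 Holstein heifers, each sampled at 5 and again at 16 months of age, which gave 6 libraries, 3 at each age and 2 from each animal. All cultures were at passage 5, had received no treatment, and came from animals picked for a middling IL-8 response to LPS, so they do not stand for the range of the herd. In MIRA, methyl-binding proteins on beads pull down sonicated fragments, and the read count of a region rises with its methylation and with its CpG density. The 2 cannot be told apart in the levels below, whereas a comparison of the same window between ages has the same CpG sites on both sides. Reads were counted in sequential windows of 3 kb of the bovine genome UMD v3.1, each of which shows at most 1 gene symbol.

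Between 19.9 and 43.6 M reads were counted per library. Values are counts per M (CPM), taken over the reads of a library in the windows that passed a filter on low counts and scaled by TMM factors, and 1 read was worth 0.0239 to 0.0508 CPM. A member window held a median of 9 reads per library and a first window a median of 10, so that many of the low levels below rest on few reads. A count of 0 allows up to 3 reads, which is 0.0716 to 0.152 CPM depending on the library, and this covers counting error only. Libraries of the same animal varied together in animals 2 and 3, but not clearly in animal 1. Animal 3 stood apart: both of its libraries lay above the other 4 in 22 and below them in 36 of the 119 member windows that passed this filter. These are 18.5% and 30.3%, against 24.2% and 21.8% of all windows that passed it. The libraries of animal 3 also had the lowest TMM factors, 0.718 and 0.850, against 1.03 to 1.22 in the other 4. Whether the animal or the libraries set it apart was not tested. The labelled cell type cannot be checked in these data, because DNA pulldown does not measure expression. The summed CPM of the first windows of 10 fibroblast markers was 0.506 to 2.29 over the libraries, that of 4 keratinocyte markers 9.98 to 11.8, that of 3 endothelial markers 4.74 to 8.69 and that of 3 leukocyte markers 1.49 to 3.2. By edgeR's quasi-likelihood test for age, 0 windows of these lists were called, of 10, 6, 42 and 11 tested in the same order, with 3, 0, 3 and 1 at an unadjusted p under 0.05. DESeq2 and the likelihood-ratio test of edgeR also called 0. Of all tested windows, the quasi-likelihood test called 0.185%, and 7.1% had an unadjusted p under 0.05.

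The first window of a gene is the labelled window at its 5′ end on the strand printed in the files, and the body is the mean over its other windows. The first window of 51 of the 57 genes has an entry for a coding sequence. A window that touches a neighbouring gene may show that gene's symbol, so the first labelled window need not hold the start of transcription. The genes differ in size: 3 have 1 window and so no body, 18 have 2, and 7 genes with at least 20 windows hold 307 of the 487 windows, or 63.0%. The PAX family has 204 windows in 9 genes and the MEIS family 130 in 3, followed by LHX with 57 in 8, NKX with 27 in 10, IRX with 17 in 6, the sine oculis family with 15 in 6, DLX with 12 in 6, PITX with 10 in 3, MSX with 6 in 2, GSX with 5 in 2 and OTX with 4 in 2.

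First windows ranged from 0.0209 CPM in MEIS2 to 16.5 CPM in IRX4. Of the 57, 15 had a mean under 0.2 CPM, 24 lay between 0.2 and 1 CPM, and 18 reached 1 CPM. The bodies of the genes named here spanned a narrower range, from 0.0485 CPM in SIX4 to 4.29 CPM in PAX1. A mean of at least 1 CPM in the first window was thus reached by 31.6% of these genes. Among all other labelled genes the share was 23.7%, among HOX genes 56.25% and among FOX and SOX genes 36.2%. Low first windows were therefore not particular to these families.

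**Figure D1:**
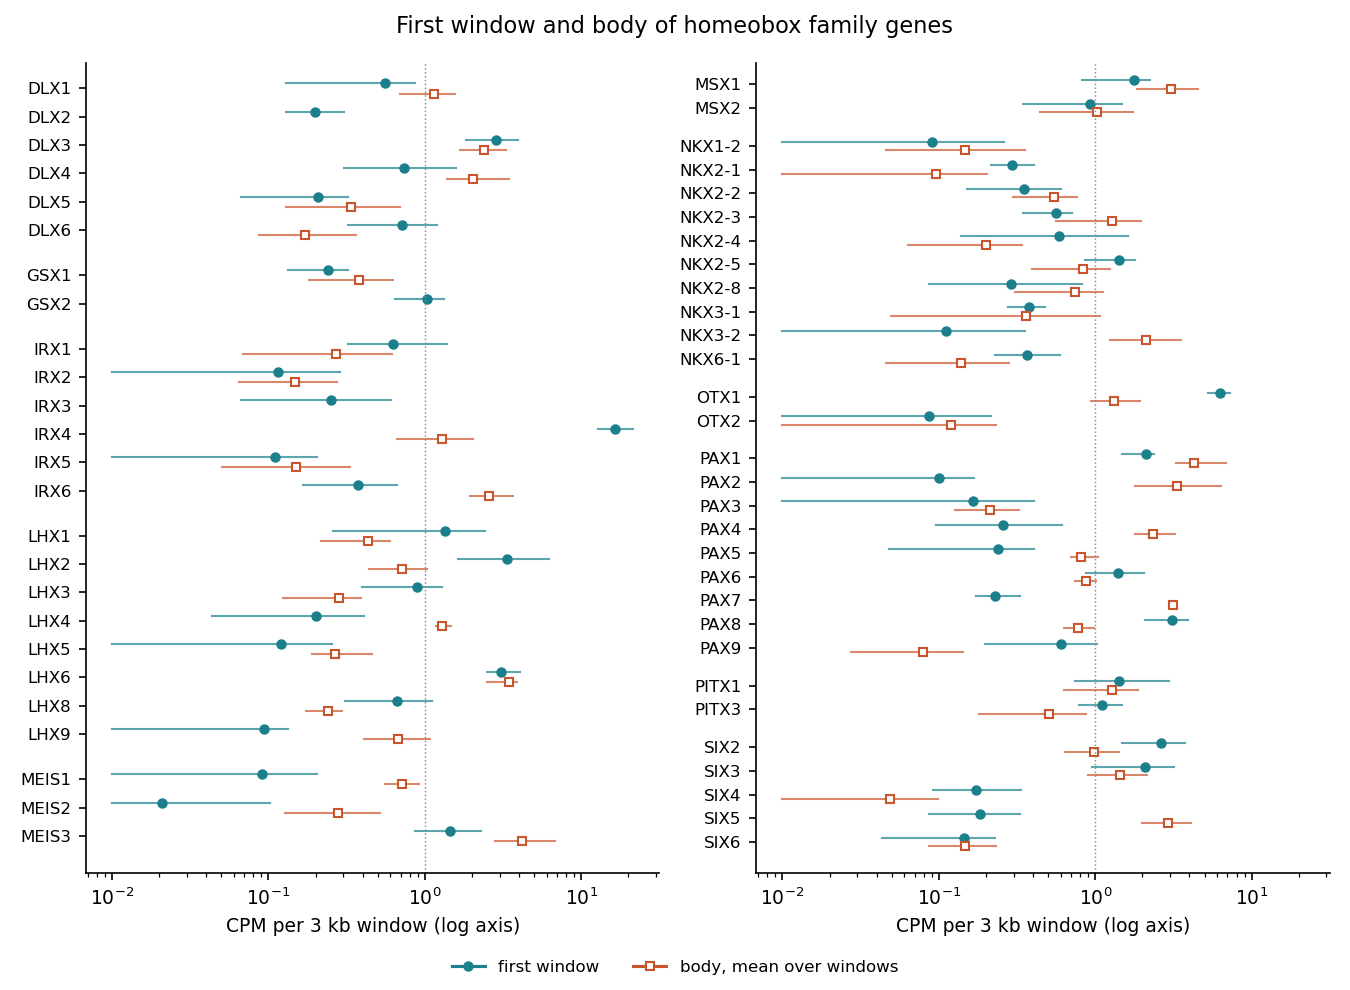
Mean CPM per 3 kb window (log axis) of the first window (filled circles) and of the body (open squares) of the genes, in alphabetical order within families, with lines from the lowest to the highest of the 6 libraries. A value of 0 is drawn at the left end of the axis, and DLX2, GSX2 and IRX3 have no body. IRX4 and OTX1 have the highest first windows drawn, at 16.5 and 6.24 CPM, and the first windows of PAX7 and SIX5 lie far to the left of their bodies.

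Over the 9 PAX genes, the first windows averaged 0.911 ± 0.168 CPM (SD over 6 libraries, as throughout) and the bodies 1.76 ± 0.17 CPM. The log2 difference of first window against body, on the log2(CPM + 0.1) scale and averaged over genes, was -0.97 ± 0.25, and it was negative in 6 of 6 libraries. Yet the family was split, with the first window lower in 6 genes and higher in the other 3.

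PAX7, which marks the stem cells of skeletal muscle, had 0.230 ± 0.067 CPM in its first window, chr2:134614334-134617333. Its body stood at 3.13 ± 0.055 CPM, with the libraries between 3.03 and 3.18. The difference was -3.32 ± 0.27 on the log2 scale, and the gene carried reads over most of its length: 25 of its 35 windows had a mean of at least 1 CPM and all 25 passed the filter. Its highest window, chr2:134527334-134530333, held 10.4 ± 2.0 CPM and has no coding sequence entry.

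PAX2, a regulator of kidney and optic nerve development, had 0.10 ± 0.06 CPM in its first window, chr26:21468031-21471030, and 3.31 CPM in its body. Most of that body came from the fifth and the sixth window, which together held 78.7% of its reads and have no coding sequence entry. The window chr26:21480031-21483030 had, in the order of animals 1, 2 and 3, 15.1, 33.3 and 80.1 CPM at 5 months and 27.0, 27.4 and 61.4 CPM at 16 months. The next window, chr26:21483031-21486030, held 13.6, 8.71 and 65.8 CPM at 5 months and 19.4, 9.17 and 50.1 CPM at 16 months.

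In both PAX2 windows the libraries of animal 3 were above those of the other animals at either age. These windows were also stacked: the deepest position was covered by a number of reads equal to 0.49 and 0.77 of the window's count, whereas the median of this share was 0.24 over the member windows that passed the filter and 0.23 over all such windows. The part of repeats, of reads with several matches and of PCR copies in this was not tested. Without these 2 windows the PAX2 body held 0.737 ± 0.183 CPM over 24 windows.

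PAX4, a factor of pancreatic islet development, had 0.256 CPM in its first window, chr4:92646605-92649604, and 2.34 ± 0.50 CPM in its body. PAX5, which commits cells to the B lineage, had 0.240 CPM and 0.815 ± 0.120 CPM, and 17 of its 61 windows reached 1 CPM. PAX1, a sclerotome and thymus gene, had 2.10 ± 0.34 CPM in its first window and 4.29 CPM in its body, the highest body of the family. All 3 had a lower first window in 6 of 6 libraries, as did PAX2 and PAX7.

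PAX8, a thyroid and kidney gene, was turned the other way. Its first window, chr11:46848685-46851684, held 3.11 ± 0.85 CPM and its body 0.771 ± 0.128 CPM. PAX9, which is needed for teeth and for the thymus, had 0.606 ± 0.290 CPM in its first window and 0.0796 CPM in its body, with differences of 1.85 ± 0.57 for PAX8 and 1.90 ± 0.63 for PAX9. PAX6, the eye and forebrain gene, had 1.39 CPM and 0.876 CPM. PAX3, which acts in neural crest and muscle precursors, was low throughout, and none of its 35 windows reached a mean of 1 CPM.

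The MEIS genes had the largest mean difference of the 11 families. MEIS1 had 0.0903 CPM in its first window and 0.715 ± 0.141 CPM in its body, MEIS2 had 0.0209 CPM and 0.280 CPM, and MEIS3 had 1.45 ± 0.54 CPM and 4.16 ± 1.51 CPM. The first window was lower in all 3 genes and in 6 of 6 libraries, and the family difference was -1.77 ± 0.29. Its size depends on the 0.1 CPM added before the log, as the first windows of MEIS1 and MEIS2 held at most 5 and 2 reads per library. The MEIS1 body was uneven. Of its 50 windows 5 reached 1 CPM, and the highest, chr11:64866885-64869884, held 10.5 ± 3.1 CPM with a stacked share of 0.48. MEIS2 is the longest member, and 1 of its 76 windows reached 1 CPM.

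**Figure D2:**
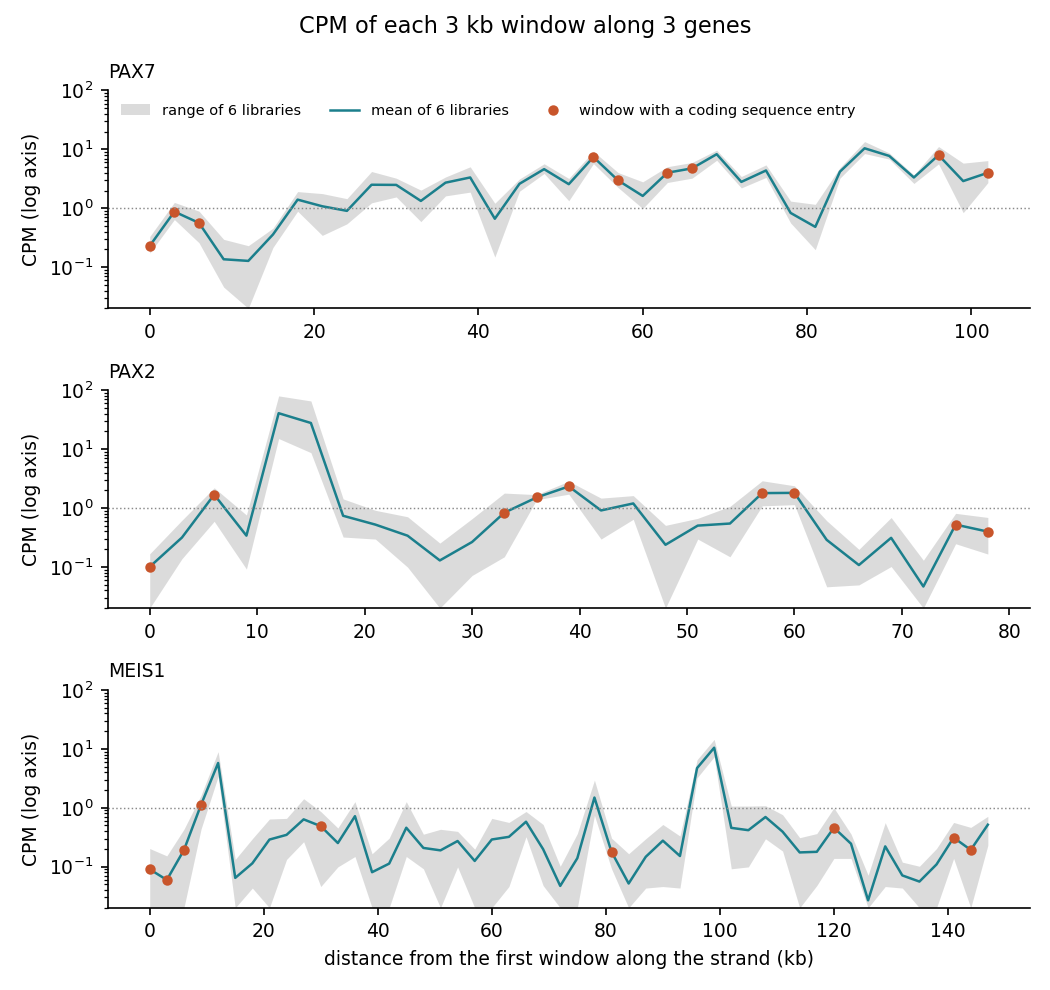
Mean CPM (line, log axis) and range over 6 libraries (band) of each 3 kb window along PAX7, PAX2 and MEIS1, by distance in kb from the first window along the strand. Dots mark windows with a coding sequence entry, values under the axis are drawn at its lower end, and the dotted line is 1 CPM. PAX7 stays above 1 CPM over most of its length, whereas PAX2 reaches 40.7 CPM and MEIS1 10.5 CPM in narrow peaks without a coding entry.

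The LIM homeobox family showed no common direction. The 8 LHX genes averaged 1.22 ± 0.27 CPM in their first windows and 0.917 ± 0.070 CPM in their bodies, with a log2 difference of 0.04 ± 0.21, and the first window was lower in 4 of the 8. LHX2, a forebrain and hair follicle gene, had the highest first window at 3.37 ± 1.76 CPM, against 0.714 CPM in its body. LHX6, which directs cortical interneurons, had the highest body at 3.44 ± 0.49 CPM and nearly as much in its first window, at 3.08 CPM.

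LHX3 and LHX4, which act together in the pituitary and in motor neurons, differed in opposite directions. LHX3 had 0.893 CPM in its first window and 0.280 CPM in its body, a difference of 1.34 ± 0.29. LHX4 had 0.201 CPM and 1.29 ± 0.12 CPM, a difference of -2.38 ± 0.77. LHX9, a gonad gene, had the lowest first window of the family at 0.0931 CPM, with 0.672 CPM in its body.

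The Iroquois genes lie in paralogous groups on chromosomes 18 and 20, and IRX4 was unlike the others. The first window of IRX4, a gene of the heart ventricle, at chr20:70919918-70922917, had, in the same order of animals, 13.8, 17.8 and 14.3 CPM at 5 months and 18.9, 21.5 and 12.8 CPM at 16 months. Those values span less than 2-fold and the ages overlap. The reads were spread over the window, with a stacked share of 0.09, and the unlabelled window 6 kb upstream held 14.2 CPM. The body of IRX4 held 1.28 CPM, so that its log2 difference of 3.65 ± 0.47 was the highest of all members with at least 2 body windows.

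The other 5 IRX first windows averaged 0.295 ± 0.099 CPM. IRX5 was lowest at 0.110 CPM, and IRX6 had 0.372 CPM in its first window and 2.56 ± 0.64 CPM in its body, a difference of -2.56 ± 0.85. The family mean of 3.00 ± 0.61 CPM for the first windows therefore rests on IRX4.

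In the orthodenticle and PITX families the first window was on average the higher part, in 6 and in 5 of 6 libraries. OTX1, a cortex gene, had 6.24 ± 0.67 CPM in its first window, chr11:61476685-61479684, and 1.31 CPM in its only other window. OTX2, the gene of the anterior head, had 0.0860 CPM and 0.119 CPM, so the family difference of 0.96 ± 0.33 came from OTX1. PITX1, a hindlimb gene, had 1.42 CPM and 1.27 CPM, and PITX3, a gene of the lens and of midbrain dopamine neurons, had 1.10 ± 0.28 CPM and 0.504 CPM.

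The first windows of the NKX family averaged 0.443 ± 0.070 CPM over 10 genes, with 0.644 ± 0.118 CPM in the bodies. NKX2-5, the cardiac member, was highest at 1.41 ± 0.33 CPM, and NKX1-2 was lowest at 0.0908 CPM. NKX3-2, which acts in the axial skeleton, had 0.111 CPM in its first window and 2.10 ± 0.82 CPM in its only other window. The first window was lower in 5 of the 10 genes.

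Of the sine oculis genes, SIX2, which maintains kidney progenitors, had 2.62 ± 0.95 CPM in its first window and 0.976 CPM in the next. SIX3, a forebrain gene whose labelled windows lie 51 kb from those of SIX2, had 2.08 CPM and 1.43 CPM. SIX5, a gene expressed in muscle and eye, had 0.182 CPM in its first window and 2.92 ± 0.81 CPM in the other, and SIX6 had 0.144 CPM and 0.146 CPM. SIX4 had 0.172 CPM in its first window and 0.0485 CPM in its body.

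The distal-less genes come in pairs that face each other. In the pair on chromosome 19, DLX3, an epidermis and hair follicle gene, had 2.84 ± 0.94 CPM in its first window and 2.40 ± 0.61 CPM in its body, the highest of the family in both, and DLX4 had 0.735 CPM and 2.02 CPM. In the pair on chromosome 2, DLX1 had 0.559 CPM and 1.14 CPM, and the only window of DLX2 held 0.197 CPM. In the pair on chromosome 4, DLX5 had 0.207 CPM and 0.339 CPM, and DLX6 had 0.711 CPM and 0.172 CPM. MSX1, a tooth and limb gene, had 1.76 ± 0.58 CPM and 3.06 ± 0.94 CPM, and MSX2 had 0.928 CPM and 1.02 CPM. GSX2 had 1.03 ± 0.25 CPM in its only window, and GSX1 had 0.242 CPM and 0.377 CPM.

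By family, the mean log2 difference of first window against body was negative in 6 of 6 libraries in 3 families, MEIS, PAX and DLX, positive in 6 of 6 in OTX, and mixed over the libraries in the other 7. With the window upstream counted as part of the start, 5 families were negative in all libraries, and with the median over genes 2 were. Without animal 2 the number was 6, over the 4 libraries left. The GSX, MSX and OTX values rest on 1 or 2 genes each.

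**Figure D3:**
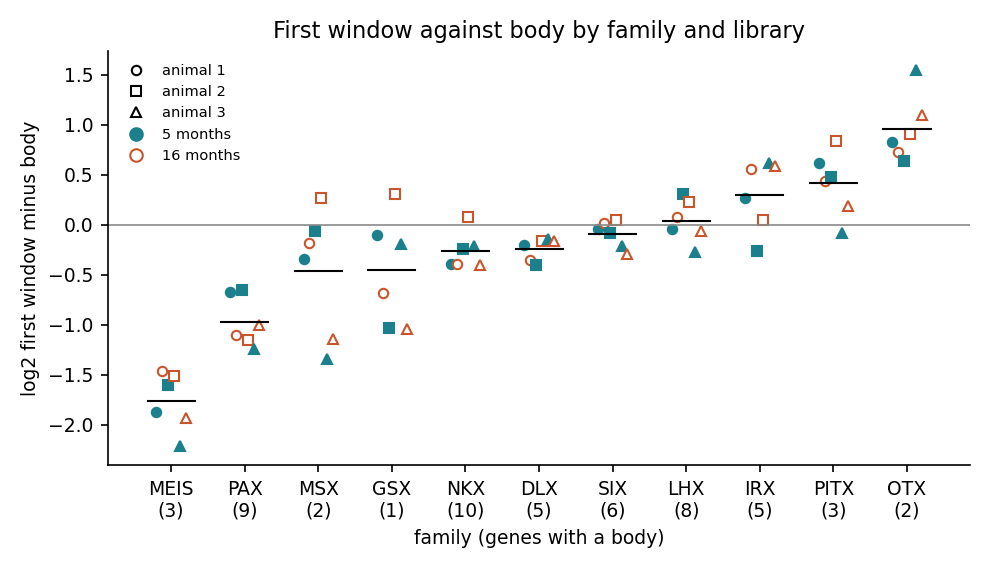
Log2 difference of first window against body, on the log2(CPM + 0.1) scale, averaged over the genes of each family that have a body (number under the name) in each of the 6 libraries, with black lines at the family means. Shapes mark animals and colours ages. MEIS and PAX lie below 0 in every library, at means of -1.77 and -0.97, and OTX lies above 0 in every library, at 0.96.

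Over all 54 members with a body the log2 difference averaged -0.27 ± 0.09, and the 6 libraries lay between -0.39 and -0.14. Over the 19806 labelled genes outside the families that have a body it was -0.75 ± 0.04. The first window was lower than the body in 30 of the 54 members, or 55.6%, against 68.5% of the other genes, and it was higher in all 6 libraries in 18 members, or 33.3%, against 15.04%. The size and sign of the member value depended on how it was averaged: the log2 ratio of the pooled mean CPM was 0.11 and, without IRX4, -0.25. These shares describe the genes, which are not replicates, and were not tested.

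The first windows of the members had a median of 0.461 CPM and their bodies 0.727 CPM, beside 0.295 and 0.540 CPM for all other labelled genes. The 32 HOX genes had 1.32 and 1.37 CPM, and the 47 FOX and SOX genes 0.411 and 0.828 CPM. The mean log2(CPM + 0.1) of the first windows was above that of the other genes by 0.36 ± 0.25, and in animals 1, 2 and 3 this difference was 0.60, 0.38 and 0.06 at 5 months, with 0.42, 0.64 and 0.06 at 16 months. In animal 3, where the members were closest to the rest, the first windows of the other genes had medians of 0.347 and 0.508 CPM, beside 0.138 to 0.331 CPM in the other 4 libraries. With a pseudocount of 0.5 CPM the difference was 0.17 and negative in 2 of 6 libraries. On pooled mean CPM it was 0.02 and, without IRX4, -0.33. The mean difference of the bodies was -0.07 ± 0.18, and its sign and size depended on the average: it was -0.64 ± 0.09 on pooled mean CPM, negative in 6 of 6 libraries, and 0.42 as a median over genes.

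Around the first window, the mean log2(CPM + 0.1) of the members was -1.36 ± 0.36 at 9 kb upstream, -0.86 ± 0.24 at 6 kb upstream, -1.07 ± 0.24 at 3 kb upstream, -0.66 ± 0.13 in the first window, -0.51 ± 0.17 in the next and -0.99 ± 0.15 at 6 kb downstream. All other genes stood at -1.02 ± 0.29 in the first window and between -1.27 and -0.90 over 30 kb on either side. Among these positions, the mean of the members was highest in the first window and the next. At 21 kb or more away it lay between -1.13 and -0.83, beside -1.09 to -0.95 for the other genes. The positions are fixed distances. As 3 members have 1 window and 18 have 2, the farther positions lie outside the labelled gene in these, so the profile does not compare first windows with bodies.

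**Figure D4:**
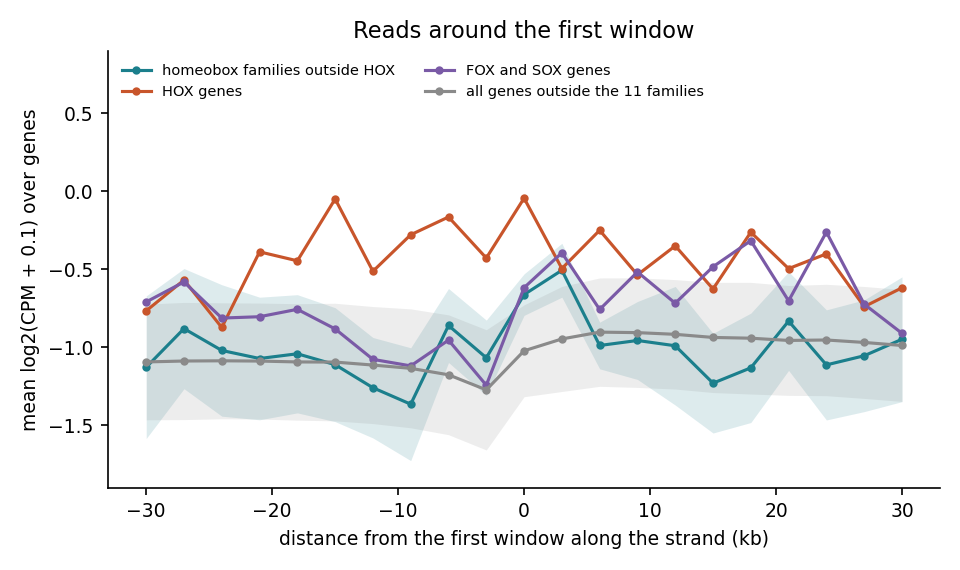
Mean log2(CPM + 0.1) over genes in 3 kb windows from 30 kb upstream to 30 kb downstream of the first window, averaged over 6 libraries, for the 57 members, the HOX genes, the FOX and SOX genes and all other labelled genes. The bands give the SD over libraries for the members and for the genes outside the families. The members peak at -0.66 in the first window and -0.51 in the next, and HOX genes stand above them over most of the range.

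Pooled over genes, body windows with a coding sequence entry held more reads on average than the others. Long genes weigh most in these pools, and coding and other windows were not compared gene by gene. The 134 coding body windows of the members had a mean log2(CPM + 0.1) of -0.38, the 296 others -1.18, and the difference of 0.79 ± 0.21 was positive in 6 of 6 libraries. A mean of at least 1 CPM was reached by 38.8% of the coding and 18.9% of the other body windows, beside 34.2% and 13.1% in all other genes. Of the 36 members with at least 3 windows, the highest window was the first in 10, the last in 6 and one in between in 20.

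Whether methylation of these genes differed between the ages was tested with edgeR's quasi-likelihood test, fitted to all windows with the animal as a block and adjusted by Benjamini-Hochberg. Windows were tested where at least 3 of 6 libraries reached 1 CPM, and called where the FDR was below 0.1 and the ages differed at least 2-fold. A positive log2 fold change means more reads at 5 months. Of the 487 member windows 119 were tested, or 24.4%, beside 18.1% of all labelled windows on these chromosomes. They were 62 of PAX, 20 of LHX, 9 of MEIS, 6 of PITX, 5 of MSX, 4 each of DLX, IRX and the sine oculis genes, 3 of NKX, 2 of OTX and 0 of GSX.

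A single member window was called, 1 of 119, where 0.185% of all tested windows were called. It is the first window of LHX2, chr11:95126785-95129784, which has a coding sequence entry. For animals 1, 2 and 3 it showed 3.31, 4.61 and 6.24 CPM at 5 months, as against 2.53, 1.93 and 1.63 CPM at 16 months, from 72, 139 and 144 reads against 106, 39 and 32. All 5-month values lay above all 16-month values, with a small gap in animal 1 and a wide one in animal 3. The log2 fold change was 1.15 (SE 0.24, adjusted p = 0.00541 by edgeR's quasi-likelihood test). The list of 3 kb regions differing by age that the authors published does not include this window.

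The next LHX2 window downstream was also higher at 5 months in each animal, with 1.43, 2.15 and 0.910 CPM against 0.716, 0.545 and 0.559 CPM, but did not pass the filter. The window upstream, labelled LOC100848819, had a log2 fold change of 0.41 and was not called. The LHX2 call was lost without animal 2 (adjusted p = 0.174) and without animal 3 (adjusted p = 0.109, log2 fold change 0.81), and under DESeq2, a filter of 0.5 CPM or none, no block, and TMM factors from all windows. The call therefore rests on animals 2 and 3 and on the settings, of which no block called 0 and DESeq2 15 of all 104658 windows.

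With no fold change threshold, 2 member windows passed the FDR, where 0.325% of all tested windows did. The other was the last window of PAX1, chr13:41255397-41258396, with 5.24, 5.43 and 6.11 CPM at 5 months and 10.7, 14.8 and 7.31 CPM at 16 months. The ages did not overlap. The log2 fold change was -0.93 (SE 0.22, adjusted p = 0.0343 by the same test), higher at 16 months, which falls short of the fold change asked for. It no longer passed the FDR without animal 1 (adjusted p = 1.00) or animal 2 (adjusted p = 0.862), and under DESeq2, a filter of 0.5 CPM or none, no block, and TMM factors from all windows. Without animal 3 the window passed both thresholds (log2 fold change -1.22, adjusted p = 9.7e-06), in a fit that called 1.24% of all windows. The first and the second window of PAX1 had log2 fold changes of 0.19 and -0.20 and were not called.

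The neighbours SIX2 and SIX3 came next, below the threshold. The first window of SIX2, chr11:27261485-27264484, held 2.80, 3.74 and 3.68 CPM at 5 months and 1.48, 2.03 and 1.98 CPM at 16 months. Its log2 fold change was 0.90 (SE 0.25, adjusted p = 0.123 by edgeR's quasi-likelihood test). The second window of SIX3, chr11:27201485-27204484, held 3.08, 3.68 and 1.82 CPM against 1.84, 1.14 and 1.32 CPM, a log2 fold change of 0.96 (SE 0.29, adjusted p = 0.180). SIX2 had higher values at 5 months in each animal and its ages did not overlap, and in SIX3 the lowest 5-month value lay within the range of the 16-month values.

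**Figure D5:**
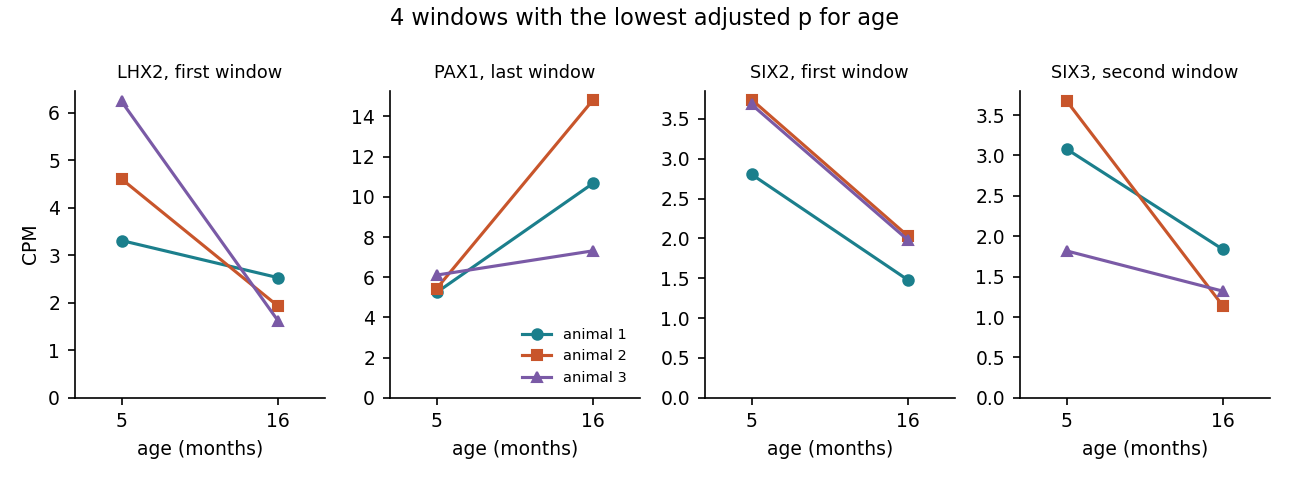
CPM (linear axis from 0) of 4 member windows at 5 and at 16 months, with a line for each of the 3 animals. These are the member windows with the lowest adjusted p for age. LHX2 is higher at 5 months in each animal, from 3.31 against 2.53 CPM in animal 1 to 6.24 against 1.63 CPM in animal 3, PAX1 is higher at 16 months in each, and SIX2 and SIX3 were not called.

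Of the 10 member windows with the lowest adjusted p, the other 6 had values from 0.398 to 0.661. MEIS1 had 2 of these, with log2 fold changes of 0.57 in chr11:64863885-64866884, a window with a stacked share of 0.54, and -0.46 in chr11:64779885-64782884. The others were an LHX6 window at 0.52, the second window of MSX1 at -0.49, the second window of NKX3-2 at 0.66 and the last window of PITX1 at 0.99. All 3 windows of PITX1 had positive values, 0.55, 0.80 and 0.99, none of which passed.

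At an unadjusted p under 0.05 there were 11 member windows, or 9.24%, of which 8 were higher at 5 and 3 at 16 months, and 7.1% of all tested windows reached that level. The log2 fold changes of the 119 member windows ran from -0.93 to 1.15, with 71 positive and 48 negative and a median of 0.08, beside 0.02 over all tested windows. The 3 animals moved in the same direction in 34 member windows, or 28.6%, beside 26.0% of all windows. The high windows of IRX4, OTX1 and PAX7 described above were not called.

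Tested as features of their own, 17 first windows of members passed the filter and edgeR's quasi-likelihood test called 0 of them, as it did 0.0% of all 5747 first windows tested. Of these 17, 2 had an unadjusted p under 0.05, LHX2 (log2 fold change 1.15, adjusted p = 0.272) and SIX2 (0.90, adjusted p = 0.274). The likelihood-ratio test of edgeR called LHX2, with 0.539% of all first windows, and DESeq2 called 0. Of the gene bodies, 33 were tested and 0 were called, where 0.0129% of all bodies were, with 1 at an unadjusted p under 0.05 and 0 called by the likelihood-ratio test or DESeq2. That body was PAX1 (log2 fold change -0.59, SE 0.29, adjusted p = 1.00). Without animal 2, the body of NKX3-2 was called, 1 of 33, in a fit that called 2.15% of all bodies.

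Age differences by family were taken as the log2 ratio of the mean CPM over genes, in which the genes with the most reads weigh most. By this measure the first windows of the LHX genes were higher at 5 months in each animal, by 0.19, 0.68 and 0.54 in animals 1, 2 and 3. Without LHX2 these differences were 0.10, 0.45 and -0.32. The sine oculis first windows were higher at 5 months by 0.14, 0.51 and 0.15, and without SIX2 the differences were -0.38, 0.25 and -0.83. The MSX first windows differed by -0.21, -0.01 and -0.72. The PAX bodies differed by -0.18, -0.22 and -0.02 and, without PAX1, by 0.03, 0.19 and -0.0029. The IRX bodies differed by -0.16, -0.18 and -0.03, the MSX bodies by -0.13, -0.18 and -0.45 and the LHX bodies by 0.06, 0.20 and 0.14. Each of these 7 shared directions was lost when some single gene of the family was left out, a check chosen after seeing the data. All other family means changed sign between animals, those of the IRX first windows among them, which without IRX4 differed by -0.70, -1.10 and -0.78 at a mean of 0.295 CPM. With 3 animals an exact sign-flip test cannot go below p = 0.25, so these values are given without a test.

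Genes that work with the homeobox factors were also examined by list. Of 21 partner genes (EYA, DACH1, PBX, PKNOX, LDB, LMO and TLE), 20 were labelled, and 0 of their 116 tested windows were called by age, with 4 at an unadjusted p under 0.05. Of 26 Polycomb genes all were labelled, and 0 of their 94 tested windows were called, with 3 at an unadjusted p under 0.05. The likelihood-ratio test of edgeR and DESeq2 also called 0 windows in both lists. Of all tested windows, 0.185% were called by the quasi-likelihood test and 7.1% had an unadjusted p under 0.05, so few calls could arise in lists of this size. The first windows had a median of 0.320 CPM in the partners and 0.213 CPM in the Polycomb genes, beside 0.461 CPM in the homeobox families.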

How the data were processed

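MIRA-Seq libraries of 3 Holstein heifers at 2 ages (n = 3 per age) were analysed. The authors filtered the reads, aligned them with NextGENe 2.3.4 to UMD v3.1 and deposited raw read counts per sequential 3 kb window, together with the lowest, mean and highest coverage depth of each window. This deposited signal is unscaled. How PCR copies and reads with several matches were treated was not stated in the methods read here. The highest coverage was used to compute the stacked share, the highest depth divided by the read count of a window. Gene symbols, strands and coding sequence entries are those of the deposited files. No genome sequence of this build was used, so no sequences are given.

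The models ran in R 4.3.3 using edgeR 4.0.16 (quasi-likelihood test, TMM, animal as a block), limma 3.58.1 and DESeq2 1.42.0, and levels in Python 3.11.15 with numpy 2.4.6 and pandas 2.3.3, with figures from matplotlib 3.10.9. Models were fitted to all windows of the genome, to the first window of every labelled gene and to the summed counts of every gene body, each with its own filter of 1 CPM, over the counts of all windows, in at least 3 of 6 libraries. With the block, 2 residual degrees of freedom remained, to which the shared spread added 178 for windows and 16.1 for first windows. For bodies this addition was infinite, so the tests of bodies used the shared spread alone, with no spread of the single gene. A standard error is the log2 fold change over the square root of F. The fits were checked on simulated counts, drawn with the same spread for every feature and the same age effect in each animal. This check therefore does not cover how the real libraries vary. Levels in CPM, those of families among them, are arithmetic means or medians as named. Log2 levels and log2 differences of first window against body were averaged on the log2(CPM + 0.1) scale, except on pooled mean CPM. Age differences by family are log2 ratios of the mean CPM over genes, with no pseudocount. SDs are over 6 libraries, which come from 3 animals and are not fully independent. The counts are not corrected for PCR copies and are not independent molecules.

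The labels number the animals, so the pairing comes from the design. Over the windows tested, the deviations from the age means of the paired libraries had correlations of 0.29 (animal 1), 0.54 (animal 2) and 0.71 (animal 3). Animal 2 at 5 months and animal 1 at 16 months had 0.32, above the pair of animal 1. In the member windows the pairs had 0.19, 0.56 and 0.70, and that unpaired value was 0.42. Over the windows tested, animal 1 at 5 months had 0.18 with animal 2 and -0.26 with animal 3 at 16 months, both below its own pair. In the member windows it had 0.29 with animal 2, above its own pair. The values thus do not clearly bear out the pair of animal 1. The same 3 animals gave both ages, and no separate cultures of an animal at an age were compared.

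The members and gene lists were chosen with earlier results of these data known. The text names every called member, the 10 member windows with the lowest FDR, the highest and lowest first window and the highest body of each family, the 5 highest windows, and the 5 genes at either end of the first-against-body difference among those with at least 2 body windows. Other members named, among them the remaining DLX and PAX genes and SIX4, were added after their values were seen. Some members that this rule would name are not reported here, and they are left out of the plot of single genes but kept in the counts and averages. Sign-flip tests of the mean over members, which had been planned, are not reported, since an average over chosen genes is given here as a description. Alternatives were other tests, scalings, filters, pseudocounts, averages and definitions of the start, no block, and leaving out each animal.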

Additional observations from a re-analysis of the deposited data

How the results depend on the processing

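Leaving out an animal moved the number of called member windows between 0 and 2 (main 1), that of called first windows between 0 and 1 (main 0) and that of called bodies between 0 and 1 (main 0). Without animal 3 the 2 windows called were those of PAX1 (adjusted p = 9.7e-06) and SIX3 (log2 fold change 1.18, adjusted p = 0.0213), and LHX2 was not among them, in a fit that called 1278 of 103419 windows against 194 of 104658 with all animals. Without the replicate block 0 member windows were called, as were 0 of all 104658 windows. The block changed no call among first windows or bodies of members. The number of member windows called was also 0 with DESeq2, with no filter, with a filter of 0.5 CPM and with TMM factors from all features (chosen after seeing the data). In that order, these fits called 15 of 104658, 2 of 884574, 96 of 179683 and 25 of 104658 windows in all. With no fold change threshold 2 member windows were called, and 340 of 104658 windows in all. In first windows 1 call, LHX2, appeared under the likelihood-ratio test, library size only and a filter of 0.5 CPM. These fits called 31 of 5747, 23 of 5747 and 52 of 8695 first windows in all. Why these calls change was not tested.

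The first-against-body difference of the members (-0.27) became -0.13 with a pseudocount of 0.5 CPM, -0.0741 as a median over genes and 0.11 on pooled mean CPM. The excess of member first windows over other genes (0.36) became 0.17 with a pseudocount of 0.5 CPM and 0.33 with the upstream window included. In both it was negative in 2 of 6 libraries. It became 0.0244 on pooled mean CPM and -0.33 on pooled mean CPM without IRX4, an alternative added after seeing the data. With each animal left out it ranged from 0.28 to 0.51. The body difference (-0.07) became -0.64 on pooled mean CPM, -0.65 on that without IRX4, 0.42 as a median and 0.00073 with the top 1% of windows by count left out, and ranged from -0.13 to 0.0384 with each animal left out (0.0384 without animal 3). The number of families with a lower first window in all libraries (3) was 2 as a median over genes. It was 4 with a pseudocount of 0.5 CPM, on pooled mean CPM and with the top 1% of windows left out. It was 5 with the upstream window included, 5 on pooled mean CPM without IRX4, and 3 to 6 over 4 libraries with each animal left out. All gene labels name 1 gene, so leaving out windows that name several could not change a value. A median of 10 reads per first window limits what can be called there, and 40 of the 57 did not pass the filter.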
